A study of Canis lupus familiaris with 5 samples.

Results

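The genes described here are the ribosomal protein genes of the dog genome, as named in lists of binding sites of human DUX4, canine DUXC and the canine isoform DUXC-ALT. They were chosen by symbol: a gene was taken when its dog symbol, or the symbol of its human homolog where no dog symbol was listed, read RPL or RPS followed by a digit, RPLP or RPSA, without the RPS6K kinases. This gave 59 gene copies with 44 symbols, out of 11509 named genes and 21684 genes in all. Each Ensembl gene was counted as its own copy, and 10 symbols had more than 1 copy. A gene enters the lists only when it is the nearest gene to some peak, so a ribosomal protein gene with no nearest peak in any list is not among the 59. By symbol alone, 40 copies belong to the large subunit and 18 to the small subunit. The 40 include paralogs of ribosomal protein genes, such as RPL7L1, and the joint names RPL17-C18orf32 and RPL36A-HNRNPH2. The remaining copy, RPS19BP1, fits the symbol rule but encodes a nucleolar partner of RPS19 and not a ribosomal protein.

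ChIP-seq, the sequencing of immunoprecipitated chromatin, was used to map the binding sites in immortalized canine myoblasts, a muscle precursor line, carrying inducible factors in the vector pCW57.1. The DUX4 line and the DUXC line were monoclonal, so each is 1 clone, and the DUXC-ALT line was polyclonal; all of them were doxycycline inducible, with doxycycline given at 1 µg/ml for 24 hours. The canine proteins were chimeras with the human DUX4 C-terminal domain, which the antiserum recognizes. A polyclonal and a monoclonal luciferase line, labelled as not doxycycline inducible, were the negative controls. Each of these 5 groups had 1 library. The question was how the sites of the canine proteins compare with those of human DUX4.

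DUX4 is a double homeobox transcription factor of the early embryo, and its expression in skeletal muscle causes facioscapulohumeral dystrophy. Ribosomal proteins assemble with ribosomal RNA into the small subunit, which decodes messenger RNA, and the large subunit, which joins amino acids. Their genes are transcribed strongly in nearly every cell, muscle included, and each is usually a short gene with several introns. Mammalian genomes also hold many copies of these genes that arose by reverse transcription of their messenger RNAs. Such copies lack introns, sit at new places in the genome, and mostly make no protein.

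There were 85825 peaks for DUX4, of which 46.6% were nearest to a named gene, 6031 for DUXC (53.2%) and 561 for DUXC-ALT (50.1%). Heights were on a different scale in each list, in whole numbers for DUXC, and no list gives the total reads of its library. Heights are therefore compared only within a list. Peaks of the luciferase lines were not analysed here. No value has a replicate, and no test between groups was possible. Intervals of shares below are exact Clopper-Pearson 95% intervals that cover counting error only. Those of medians are 95% intervals taken from the ranked values, and they treat peaks as independent. No expression was measured, so neither the myoblast label nor the output of these genes could be checked.

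The 59 copies fell into a pair of classes that the symbol rule did not use. Named genes of the lists on both sides of each copy, without ribosomal protein genes, were compared with the neighbours of the RefSeq dog gene of the same name. Up to 10 were taken on each side. A hyphenated name was read by its first part, so RPL17-C18orf32 was compared as RPL17. For 23 copies, 5 to 17 neighbours were shared, and these are called the resident genes below. They were 645 to 20457 bp long with a median of 4196 bp. For 32 copies no neighbour was shared, and 4 copies had a name that RefSeq does not use (RPL39 on chromosomes 8 and 31, RPL23A and RPL36A-HNRNPH2, read as RPL36A). These 36 displaced or unplaced copies were 153 to 1269 bp long with a median of 514.5 bp, shorter than every resident gene except RPL10L and RPS27. The lists do not say whether they are reverse-transcribed copies. RefSeq names 81 protein-coding genes that match the symbol rule, and 58 of these had no resident copy in the lists. The like share over all RefSeq protein-coding genes was not counted. A gene can also be missing because it has no listed symbol, so the 58 are not a count of unbound genes.

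Of the 211 DUX4 peaks listed under ribosomal protein genes, 43 belonged to the 23 resident genes and 168 to the 36 other copies. A single peak was listed for 17 of the 23 resident genes. The other copies had a median of 3 peaks, up to 20. Other named genes with a DUX4 peak had a median of 2, as did those under 1500 bp, each up to 60. Those in the length range of the resident genes of 1500 bp or more had a median of 1. DUXC had 12 peaks, each at a different copy, and 11 of these were at displaced or unplaced copies. DUXC-ALT had 1 peak.

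**Figure D1:**
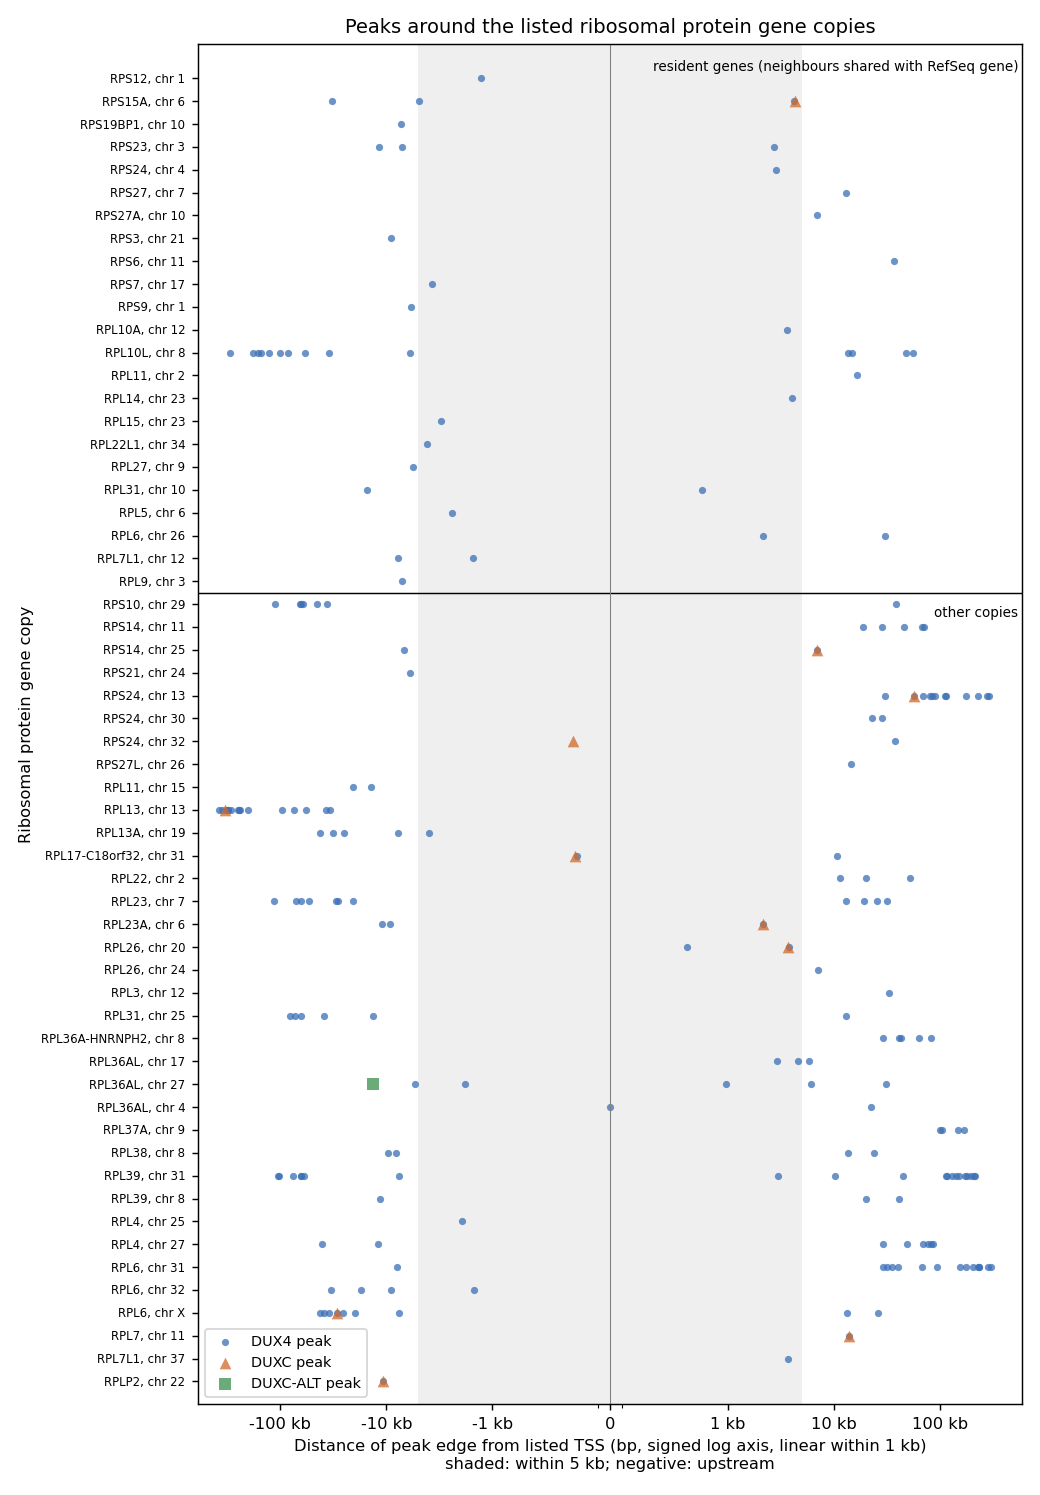
Signed distance of every peak listed under 58 of the 59 ribosomal protein gene copies from the listed transcription start site (bp, signed log axis, linear within 1 kb), 1 row per copy, with the 23 resident genes above the line and 35 other copies below. Circles are DUX4 peaks, triangles DUXC peaks, the square is the DUXC-ALT peak, and the grey band marks 5 kb on either side of the start; most resident genes have a single circle near the band, and 10 of the 11 triangles lie below the line.

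Among resident genes of the small subunit, RPS15A stood out in the DUX4 list. RPS15A (ENSCAFG00000018174.3, canFam3 chromosome 6, 26309073 to 26329529) had 3 DUX4 peaks. The tallest lay in intron 7 of 8, 4215 bp downstream of the listed transcription start site (TSS), at 26326693 to 26327199. Its pileup, the authors' scaled signal at the summit, was 50.43, and its fold enrichment, the authors' ratio of that signal to local background, was 24.6. Only 483 of the 85825 DUX4 peaks were taller (0.563%). The other RPS15A peaks were ordinary in height, at 15.59 in intron 5, 4941 bp upstream of the listed TSS, and 16.5 in intron 39 of the neighbouring gene SMG1, which encodes a kinase of nonsense-mediated decay. RPS15A was also the only resident gene of the 23 with a DUXC peak. For the tallest DUX4 peak and the DUXC peak, the listed TSS is that of a shorter transcript, which starts well inside the span given above. The counts of RPS15A within 5 kb, for DUX4 and DUXC, rest on that transcript.

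RPS23, whose product sits at the decoding centre, had 3 DUX4 peaks as well. One of them lay over the gene (chromosome 3, 25211370 to 25211892), 2712 bp downstream of the TSS, with a pileup of 26.59 and a fold enrichment of 13.2. The others lay 7052 and 11775 bp upstream, at 20.17 and 17.42. The resident RPS24 gene on chromosome 4, which is mutated in Diamond-Blackfan anaemia, had a low peak over the gene, 2838 bp downstream of the TSS, with a pileup of 11.92. RPS12 had a peak 1279 bp upstream of its TSS (chromosome 1, 25835055 to 25835430) with a pileup of 26.59 and a fold enrichment of 13.0. RPS7 had a peak 3675 bp upstream with a pileup of 19.26. RPS15A, RPS23, RPS24, RPS12 and RPS7 were the 5 of 10 resident small-subunit genes with a DUX4 peak within 5 kb of the TSS, and none of the 10 had a peak within 1 kb. RPS15A is counted there by its shorter transcript. Of all named genes, 37.6% had a DUX4 peak within 5 kb and 8.35% within 1 kb.

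The remaining resident small-subunit genes had their nearest DUX4 peak farther out. RPS3, whose product lines the messenger RNA entry channel, had a tall peak 8938 bp upstream, with a pileup of 41.26 and a fold enrichment of 18.0. The peak listed for RPS9 lay 5870 bp upstream at a pileup of 20.17. That of RPS27A, which encodes a fusion of ubiquitin and a ribosomal protein, lay 6984 bp downstream of its TSS in an intron of an unnamed gene, at 15.59. Peaks listed under RPS27 and RPS6, the substrate of S6 kinase, lay inside other genes: 13008 bp away in intron 33 of NUP210L with a pileup of 16.5, and 37050 bp away in intron 18 of DENND4C with a pileup of 13.75. RPS19BP1 had a peak 7263 bp upstream with a pileup of 13.75.

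Of 12 resident genes with large-subunit symbols, paralogs among them, 8 had a DUX4 peak within 5 kb, a distance at which 37.6% of all named genes had one. RPL31, which encodes a protein near the exit tunnel, was the only resident gene with a DUX4 peak within 1 kb. It lay 777 bp downstream of the TSS and over the gene (chromosome 10, 41841168 to 41841434), with a pileup of 18.34 and a fold enrichment of 8.64. The resident RPL6 gene on chromosome 26 had a peak over the gene, 2137 bp downstream of the TSS (9973243 to 9973683), with a pileup of 29.34 and a fold enrichment of 13.0, and a further peak 30153 bp away at 22.92. RPL10A had a peak of 26.59 that lay 3575 bp downstream of its TSS and past the gene's end, with a fold enrichment of 13.0.

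RPL5 encodes a protein that, with 5S ribosomal RNA, binds MDM2 and so links ribosome assembly to p53. It had a DUX4 peak 2400 bp upstream of its TSS with a pileup of 15.59. RPL15 had a peak of 16.5, 3067 bp upstream, in an MLT1D copy, a long terminal repeat (LTR) element. RPL14 had a low peak of 11.92, 4040 bp downstream of its TSS. For RPL9 the only peak lay 7070 bp upstream in intron 6 of LIAS, at 12.84. RPL27 had its only peak 5558 bp upstream, in exon 5 of 5 of an unnamed gene, at 19.26.

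Resident genes that encode paralogs of ribosomal proteins differed widely in their number of peaks. RPL22L1, a paralog of RPL22, had a peak 4096 bp upstream of its TSS with a pileup of 17.42. RPL7L1 on chromosome 12, a paralog of RPL7, had peaks 1535 and 7715 bp upstream, at 19.26 and 30.26. RPL10L, an intronless paralog of RPL10 expressed in testis, differed from all other resident genes by its 14 peaks. They lay 5999 to 296160 bp from its TSS at heights of 10.09 to 45.85, and 11 of them were intergenic. The other 3 lay in introns of MDGA2.

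Counted over all 59 copies, ribosomal protein genes had DUX4 peaks near their starts about as often as other named genes. A DUX4 peak lay within 1 kb of the TSS at 5 of 59 copies (8.47%, interval 2.81 to 18.7), against 956 of 11450 other named genes (8.35%), and the share over all named genes was 8.35%. Within 5 kb the counts were 24 of 59 (40.7%, interval 28.1 to 54.3) and 4303 of 11450 (37.6%, interval 36.7 to 38.5), with 37.6% of all named genes. Within 50 kb they were 57 of 59 (96.6%) and 10900 of 11450 (95.2%), with 95.2% of all named genes. At each distance the share over all named genes lay inside the interval of the ribosomal protein genes.

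By class, a DUX4 peak lay within 5 kb at 13 of 23 resident genes (56.5%, interval 34.5 to 76.8) and at 11 of 36 other copies (30.6%, interval 16.3 to 48.1), and these intervals overlapped. The share over other named genes under 1500 bp was 40.04% (655 of 1636), inside the interval of the other copies. Of the 21 resident genes of 1500 bp or more, 13 had such a peak (61.9%, interval 38.4 to 81.9), against 1230 of 3287 other named genes of the same length range (37.4%, interval 35.8 to 39.1). That interval lay just above the 37.4% and the 37.6% of all named genes, and the 2 intervals overlapped. RPS15A is among the 13 only by its shorter transcript, and the interval without it was not computed. With a lower bound so close to those shares, the difference may rest on that 1 gene. Within 1 kb the same genes gave 1 of 21 (4.76%), against 8.79%. All 23 resident genes had a DUX4 peak at some distance, as did 11168 of 11450 other named genes (97.5%). These shares are thus rates among genes that nearly all had a DUX4 peak listed, and not among all genes of the genome. The classes and the length range were chosen after values were seen. The median distance to the nearest DUX4 peak was 4096 bp at resident genes (777 to 37050 bp) and 10674 bp at the 35 other copies with a DUX4 peak (0 to 100608 bp).

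**Figure D2:**
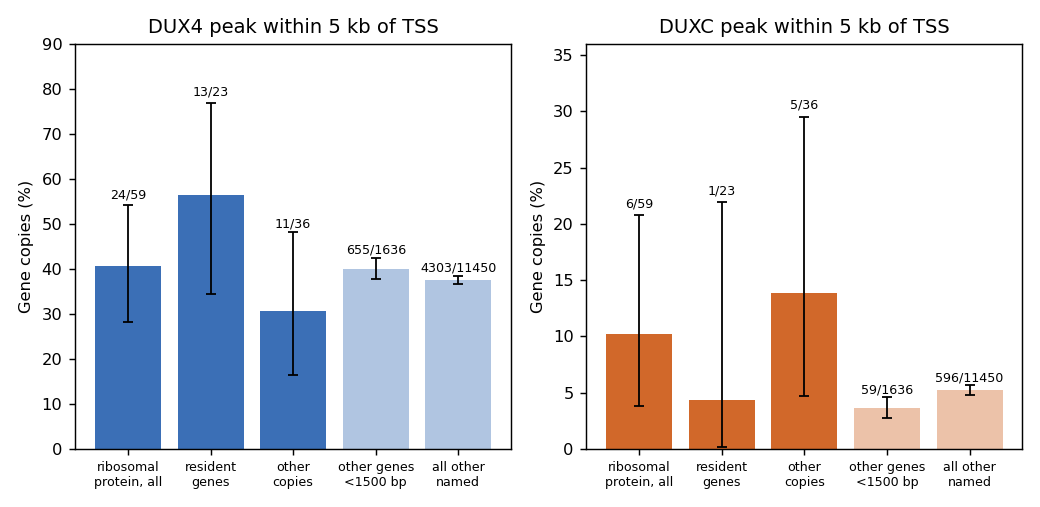
Share of gene copies (%) with a DUX4 peak (left) or DUXC peak (right) within 5 kb of the transcription start site, for all ribosomal protein copies, the resident genes, the other copies, other named genes under 1500 bp and all other named genes. Bars are shares, error bars exact 95% intervals for counting error, and the counts stand above them; every ribosomal protein interval for DUX4 contains the 37.6% of other named genes.

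Per peak, the listed distances were longer for ribosomal protein genes than for other genes, and the resident genes went the other way. The median distance of a DUX4 peak from the TSS was 33813 bp under ribosomal protein genes (interval 28590 to 41943 bp) and 26979 bp under other named genes (interval 26577 to 27423 bp). It was 7715 bp for the 43 peaks of resident genes (interval 5558 to 16386 bp) and 40638.5 bp for the 168 peaks of the other copies (interval 31362 to 57316 bp). Other named genes under 1500 bp had a median of 33050 bp. The 28 peaks of resident genes of 1500 bp or more had a median of 5249.5 bp (interval 3575 to 7263 bp), against 17593 bp for other named genes of the same length range (interval 16843 to 18234 bp). Peaks of 1 gene are not independent, and how densely genes surround these loci was not set beside the distances.

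**Figure D3:**
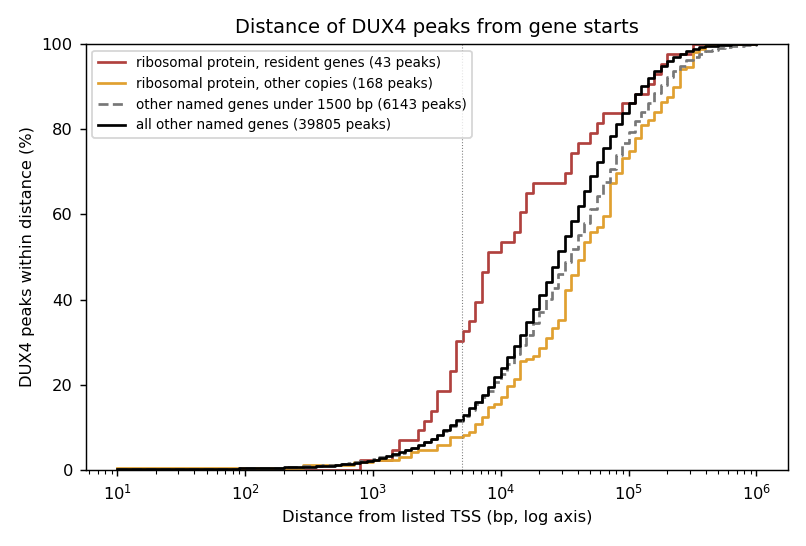
Cumulative share of DUX4 peaks (%) within a given distance of the listed transcription start site (bp, log axis) for resident ribosomal protein genes (43 peaks), the other ribosomal protein copies (168 peaks), other named genes under 1500 bp and all other named genes; the dotted line marks 5 kb. The curve of the resident genes lies left of that of all other named genes between 5 and 50 kb, with a median of 7715 bp, and the curve of the other copies lies right of it there, with a median of 40638.5 bp.

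The displaced and unplaced copies carried few peaks on the copies themselves. A peak was counted as over the listed gene when it overlapped the transcript listed for that peak. Of their 168 DUX4 peaks, 1 lay over the listed gene (0.595%, interval 0.0151 to 3.27), close to the 33 of 6143 peaks (0.537%) under other named genes of less than 1500 bp. This was at the copy on chromosome 4 named for RPL36AL, a near-identical paralog of RPL36A. That peak overlapped the TSS (62274807 to 62275069), had a pileup of 21.09 and a fold enrichment of 7.36, and was recorded in an MLT1O LTR. At resident genes 5 of 43 peaks lay over the listed gene (11.6%, interval 3.89 to 25.1), namely those at RPS15A, RPS23, RPS24, RPL31 and RPL6. The second RPS15A peak, in intron 5, lay outside the shorter transcript listed for it but inside a longer RPS15A transcript, and is not among the 5. The share was 35.1% under other named genes. All 5 were among the 28 peaks of resident genes of 1500 bp or more (17.9%, interval 6.06 to 36.9), against 15.3% under other named genes of the same length range. How reads were assigned among near-identical copies is not given in the sources used here.

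Besides RPL36AL on chromosome 4, a further 3 of these copies had a DUX4 peak within 1 kb. The copy on chromosome 31 named for the readthrough locus RPL17-C18orf32 had the tallest, 277 bp upstream (39520938 to 39521468), with a pileup of 34.84 and a fold enrichment of 13.8. It was recorded in SINEC_Cf, a canine short interspersed element (SINE). The copy of RPL26 on chromosome 20 had a peak of 13.75, 655 bp downstream of its TSS. The RPL36AL copy on chromosome 27 had a peak of 15.59, 980 bp downstream, and a second one of 11.92, 1802 bp upstream. The next nearest were an RPL6 copy on chromosome 32 (9.17, 1488 bp upstream), an RPL4 copy on chromosome 25 (21.09, 1931 bp upstream) and the RPL23A copy on chromosome 6 (28.43, 2145 bp downstream).

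A few copies held much of the count. The 6 copies with the most peaks, the resident RPL10L among them, had 87 of the 211 DUX4 peaks (41.2%), whereas 26 copies had 1 peak and 9 had 2. The like concentration under other named genes was not counted. Single genes under 1500 bp among those had up to 60 DUX4 peaks. The largest group was that of an RPL39 copy on chromosome 31, with 20 peaks at 2942 to 213623 bp and heights of 8.25 to 45.85. RPL39 encodes a small protein of the exit tunnel. An RPL13 copy on chromosome 13 followed with 15 peaks, all upstream and all intergenic, at 33813 to 376911 bp. An RPL6 copy on chromosome 31 also had 15, all intergenic, at 7847 to 299808 bp. An RPS24 copy on chromosome 13 had 12, all downstream of its TSS and all intergenic, at 30398 to 293209 bp. An RPL23 copy on chromosome 7 had 11 and an RPL6 copy on chromosome X had 9. None of the peaks of these copies, RPL10L included, lay over the listed gene.

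By position, 142 of the 211 DUX4 peaks were intergenic (67.3%, interval 60.5 to 73.6), against 45.9% under other named genes and 69.8% under other named genes of less than 1500 bp. Introns held 48 (22.7%), against 41.8% and 20.5% in those sets. The promoter class held 17 (8.06%), against 7.87% under other named genes. This class took precedence near a TSS and held the peaks over RPL31, RPL6, RPS23 and RPS24, at 777 to 2838 bp. A peak on an own exon or intron so near the TSS was thus not counted as such. At copies under 1500 bp, the class order left little room for an own exon or intron peak. Peaks in exons numbered 2 (0.948%, interval 0.115 to 3.38), against 2.66% under other named genes and 1.09% under those of less than 1500 bp. Of the 50 peaks in introns and exons, 48 lay in genes other than the listed ribosomal protein gene, and the 2 in an own intron were both in RPS15A. The 50 leave out peaks over own genes that were in the promoter class. The like share under other named genes was not counted.

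The 2 exon peaks were in exons of unnamed genes. One was the RPL27 peak described above, and the other lay 80934 bp upstream of an RPL31 copy on chromosome 25, in exon 3 of 11, with a pileup of 15.59. Another 2 peaks were annotated to 3′ untranslated regions, 6821 bp upstream of an RPS14 copy on chromosome 25, at 20.17, and 7056 bp downstream of the TSS of an RPL26 copy on chromosome 24, at 33.93. The RPL26 site had a local background of 5.0, above 3 times the floor of the DUX4 list, and a fold enrichment of 5.82. None of these 4 peaks lay over the listed ribosomal protein gene, where a peak near the TSS would have been in the promoter class.

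In height, DUX4 peaks of ribosomal protein genes resembled those of other genes. Median pileup was 17.42 under ribosomal protein genes (quartiles 13.75 and 22.92, interval of the median 16.5 to 19.26) and 18.34 under other named genes (quartiles 13.75 and 23.84). Median fold enrichment was 7.49 and 7.37, and a fold enrichment of at least 10 was reached by 52 of 211 peaks (24.6%) and by 23.6%. Resident genes had a median pileup of 19.26 (interval 16.5 to 22.92) and the other copies of 16.96 (interval 15.59 to 18.34). A local background above 3 times the floor was found at 5 of the 211 peaks (2.37%), against 3.04% under other named genes.

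The tallest DUX4 peak under any ribosomal protein name lay far from the copy that names it. It was 56503 bp downstream of the RPS24 copy on chromosome 13 (32126495 to 32126995), with a pileup of 65.1 and a fold enrichment of 29.5, and 170 of the 85825 DUX4 peaks were taller (0.198%). A second peak of the same copy reached 41.26 at 80804 bp. Beside RPS15A, a height of 50.43 was reached at an RPL6 copy on chromosome 31, 29153 bp away, and at an RPS27L copy on chromosome 26, 14447 bp away in intron 7 of 20 of an unnamed gene. RPS27L is a p53-induced paralog of RPS27 in human cells. The other peaks of the tallest 10 were those of RPL10L and the RPL39 copy on chromosome 31 (45.85 each), RPS3 (41.26), the RPL17-C18orf32 copy at 10749 bp (39.43) and an RPL36AL copy on chromosome 17, 4592 bp away in intron 26 of SYCP1 (38.51). Of these 10 peaks, only that of RPS15A lay over the listed gene.

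**Figure D4:**
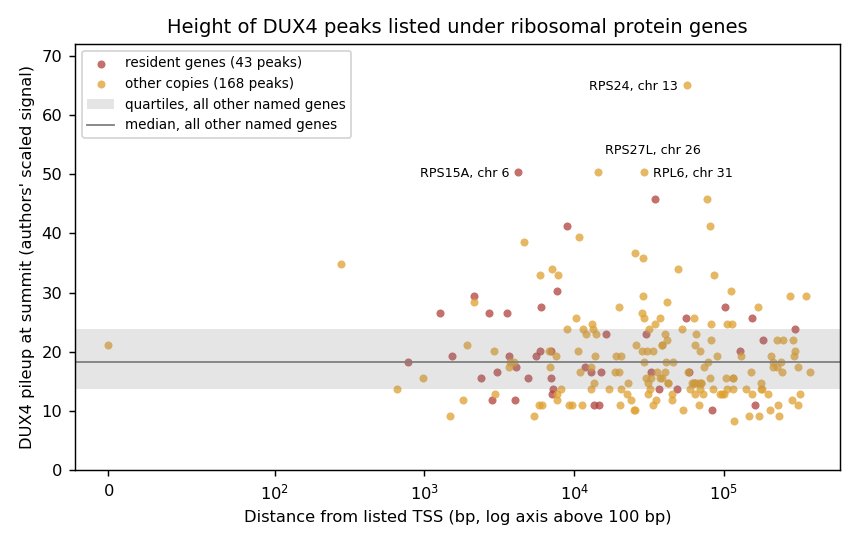
Pileup at the summit (the authors' scaled signal) of each DUX4 peak listed under a ribosomal protein gene against its distance from the transcription start site (bp, log axis above 100 bp). Points are peaks of resident genes or of the other copies, and the grey line and band are the median of 18.34 and the quartiles of 13.75 and 23.84 over all other named genes; 4 peaks of 50.43 or more are named by their copy.

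DUXC had peaks within 1 kb of the TSS at 3 of 59 ribosomal protein copies (5.08%, interval 1.06 to 14.1), against 1.62% of other named genes and 1.63% of all named genes. Within 5 kb it had them at 6 of 59 (10.2%, interval 3.82 to 20.8), against 596 of 11450 other named genes (5.21%) and 5.23% of all named genes. Other named genes under 1500 bp were at 3.61%. Within 50 kb the counts were 10 of 59 (16.9%) and 2159 of 11450 (18.9%), with 18.8% of all named genes. Each share over all named genes lay inside the interval of the ribosomal protein copies, and the 3.61% within 5 kb of other named genes under 1500 bp lay just below the 5 kb interval. By class, DUXC had a peak within 5 kb at 1 of 23 resident genes (4.35%, interval 0.110 to 21.9) and at 5 of 36 other copies (13.9%, interval 4.67 to 29.5). The interval of the other copies contained the 5.21% of other named genes and lay just above the 3.61% of those under 1500 bp. Within 1 kb the other copies had 3 of 36 (8.33%, interval 1.75 to 22.5), just above the 1.63% of all named genes and the 1.16% of other named genes under 1500 bp. These classes were set after the values were seen, and each count is small.

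The 3 copies with a DUXC peak within 1 kb were all copies that shared no neighbour with the RefSeq gene. The copy of RPL17-C18orf32 had one 300 bp upstream (39520953 to 39521445), with a pileup of 22.0 and a fold enrichment of 10.4. An RPS24 copy on chromosome 32 had one 315 bp upstream (23143171 to 23143512), with a pileup of 19.0, a fold enrichment of 10.8 and a recorded SINEC_a1 element. Farther from the TSS were the peaks of the RPL23A copy (18.0, 2145 bp), the RPL26 copy on chromosome 20 (9.0, 3725 bp) and the resident RPS15A (14.0, 4252 bp from the TSS of its shorter transcript). The RPL23A site had a raised local background and a fold enrichment of 5.11.

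The tallest DUXC peak under a ribosomal protein name was at the RPS14 copy on chromosome 25. It lay 6880 bp from the TSS in intron 25 of 29 of an unnamed gene, with a pileup of 27.0 and a fold enrichment of 13.8, and 406 of the 6031 DUXC peaks were taller (6.73%). RPLP2, which encodes an acidic protein of the ribosomal stalk, named the next, a peak of 23.0 in intron 1 of STK24, 10649 bp upstream of the copy. An RPL7 copy on chromosome 11 had a peak of 17.0, 13920 bp away in intron 1 of SAXO1. The RPS24 copy on chromosome 13, the RPL13 copy on chromosome 13 and the RPL6 copy on chromosome X had low peaks of 11.0, 10.0 and 10.0 at 56487, 334983 and 29156 bp. Median DUXC pileup was 17.0 under ribosomal protein genes (quartiles 10.75 and 19.75) and 15 under other named genes (quartiles 13.0 and 19.0). No DUXC peak of these genes was in an exon, where 0 of 12 allows a share of up to 25% by the limit of 3 counts, or 26.5% as the exact upper bound, against 2.79% under other named genes. The promoter class took precedence near a TSS here too.

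A DUX4 peak overlapped 9 of these 12 DUXC sites (75%, interval 42.8 to 94.5), against 56.0% under other named genes. Seen from DUX4, 9 of 211 peaks overlapped a DUXC peak (4.27%), against 4.50% under other named genes. In all 9 pairs the summits lay 12 to 112 bp apart, with a median of 45.0 bp. The DUX4 peak was listed under the same symbol each time, which listing by nearest gene makes nearly certain for sites this close. At RPS15A the DUXC peak (26326730 to 26326998) lay within the tall DUX4 peak in intron 7, with a fold enrichment of 8.21 in its own list. The tallest DUX4 site, downstream of the RPS24 copy on chromosome 13, was also shared, and there the DUXC peak was among the lower ones of its list, with 86.7% of DUXC peaks taller. Among the 3 DUXC peaks without an overlapping DUX4 peak were those of the RPS24 copy on chromosome 32 and the RPL13 copy. Both canine proteins carry the human domain against which the antiserum was made, and what this adds to shared sites was not tested.

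DUXC-ALT had a single peak under a ribosomal protein name, 13279 bp upstream of the RPL36AL copy on chromosome 27 (21753568 to 21753738). It lay in a MER21C LTR within intron 1 of an unnamed gene, with a pileup of 12.19 and a fold enrichment of 4.40. Its local background of 2.00 was above 3 times the floor of that list, and it overlapped no DUX4 or DUXC peak. Within 50 kb DUXC-ALT had a peak at 1 of 59 copies (1.69%), with 1.81% of all named genes. Within 5 kb, and so within 1 kb, it had no peak at any copy, and 0 of 59 allows a share of up to 5.08% when 3 counts are taken as the limit, or 6.06% as the exact upper bound. The shares of all named genes were 0.434% within 5 kb and 0.0782% within 1 kb. A share like that of other genes was thus not detectable at this number of copies.

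Repeats recorded for the peaks were similar to those under other genes. Among DUX4 peaks, long interspersed elements were recorded at 35.5% under ribosomal protein genes and 34.9% under other named genes. LTRs were recorded at 16.6% (interval 11.8 to 22.3) and 12.8%, SINEs at 11.4% (interval 7.43 to 16.5) and 16.2%, and no repeat at 31.3% and 27.6%. Among DUXC peaks, 6 of 12 had a SINE (50%, interval 21.1 to 78.9), against 32.4% under other named genes.

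Other genes of the translation pathway gave similar shares for DUX4. Of 30 copies of cytosolic translation factor genes, 14 had a DUX4 peak within 5 kb (46.7%, interval 28.3 to 65.7). Among them were EEF2, the translocation factor, with a pileup of 34.84 at 504 bp upstream, EIF1, which acts in start codon selection, with 17.42 at 210 bp upstream, and EIF5, the partner of eIF2 in start recognition, with 24.76 at 263 bp downstream. Of 28 copies of ribosome biogenesis genes, 13 had such a peak (46.4%, interval 27.5 to 66.1), among them NOP56, a box C/D particle protein, with 15.59 at 693 bp upstream and the helicase gene DDX21 with 16.5 at 830 bp downstream. Of 41 copies of mitochondrial ribosomal protein genes, 16 had one (39.0%, interval 24.2 to 55.5). All 3 intervals contain the 37.6% of all named genes.

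DUXC had a peak within 5 kb at 1 of 30 copies of translation factor genes (3.33%), 1 of 28 of ribosome biogenesis genes (3.57%) and 1 of 41 of mitochondrial ribosomal protein genes (2.44%), against 5.23% of all named genes. They were EEF2 (a pileup of 16, 561 bp upstream), GNL2, a nucleolar GTPase gene (11.0, 1771 bp upstream), and MRPL2, a protein of the mitochondrial large subunit (19.0 with a fold enrichment of 10.2, 152 bp upstream). DUX4 also had a peak at the MRPL2 promoter, 156 bp upstream with a pileup of 15.59. DUXC-ALT had none within 5 kb in any of these lists. Within 1 kb, DUX4 had a peak at 3 of 30 translation factor copies and 2 of 28 ribosome biogenesis copies. Mitochondrial ribosomal protein genes had 5 of 41, and the resident ribosomal protein genes 1 of 23 (4.35%, interval 0.110 to 21.9). The share over all named genes was 8.35%. EEF2, EIF1, EIF5 and MRPL2, picked as examples, were among the copies with such a peak.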

How the data were processed

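Per the submitters' processing notes, the authors used CASAVA, BWA 0.7.10 and MACS2 2.1.0 with canFam3; which library was the control, the threshold and later filters are not given in the sources used here. Per the file headers, each deposited list gives pileup (read here as signal coverage at the summit), fold enrichment (a ratio), −log10 p-value and −log10 q-value, distance to the TSS, annotation and at most 1 repeat per peak. These are the authors' values for single libraries, used to describe or rank peaks within a list. Pileup steps of 0.917, 1 and 0.870 show that the scaling differed, and the lowest deposited −log10 q was 2.03, 2.03 and 2.08. From the lists, counts per gene copy, shares, medians and overlaps of at least 1 bp were computed with Python 3.11.15, pandas 2.3.3 and scipy 1.17.1 (matplotlib 3.10.9 for plots). The counting of overlaps was tested on simulated peaks, and the symbol rule on a short set of names. The other counts were not tested in this way. Local background was (pileup + 1) / fold enrichment − 1, and its floor the percentile 1 of a list. RefSeq genes of another assembly (UU_Cfam_GSD_1.0) gave names and neighbours only; at least 2 shared neighbours made a copy resident. Members, lists and the rule for named genes (peaks within 1 kb or in exons, all DUXC and DUXC-ALT peaks, the 10 tallest DUX4 peaks, overlaps) were chosen with earlier results of these data known. Resident genes and pathway examples outside that rule, and the resident class itself, were chosen after their values were seen. With 1 library per group, no p-value is given. Alternatives varied the distance, fold enrichment, q, naming rule, overlap and copy set. Results at 1 copy and at 1 further site are not reported here; they stay in the counts.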

Additional observations from a re-analysis of the deposited data

How the results depend on the processing

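Of 64 alternative values, 48 stayed within bounds and 16 moved; the bounds were 1.5 times the reported value for counts and its 95% interval for shares and medians. The count of copies with a DUX4 peak within 5 kb, 24, became 5 within 1 kb, 57 within 50 kb, 8 at a fold enrichment of at least 10, 12 with dog symbols only, 13 without copies under 1500 bp and 13 with resident genes only. The DUXC count, 6, became 3, 10, 2, 2, 1 and 1 under the same alternatives. The DUXC-ALT count, 0, became 1 within 50 kb. Each of these alternatives admits fewer or more peaks or copies by construction. The share of DUX4 peaks in exons, 0.948%, was 0% at a fold enrichment of at least 10 and 3.57% without copies under 1500 bp; within its wide interval, it was 2.84% for peaks over the listed gene and 1.90% for exon or UTR. For DUXC, 0% became 8.33% for peaks over the listed gene. Median DUX4 pileup, 17.42, was 23.38 over the highest peak of each copy. Settings on raised background, on resident genes and on exon or UTR were added after seeing the data. For the single DUXC-ALT peak, a fold enrichment of at least 10 or leaving out copies under 1500 bp left no peak to describe. No paired analysis was possible because each group has 1 library and no test was made. Depth is unknown, so absent peaks are not evidence of absent binding, and counts of 12 and 1 peak leave wide intervals.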
